A study of Mus musculus with 34 samples.

Results

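The C/EBP genes *Cebpa*, *Cebpb*, *Cebpd*, *Cebpg*, and *Ddit3* were followed through 14 RNA-Seq libraries of brown preadipocytes. They were chosen by symbol as 5 of the 23109 genes in the deposited tables, and each is represented by its only RefSeq transcript there. All 5 had reads in all 14 libraries, and 4 of them had an RPKM (mapped reads scaled to transcript length and library depth) of 1 or more in each library. The exception was *Cebpa*, which lay under 1 in 1 library.

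The series holds 34 samples, of which the 14 RNA-Seq libraries are used here, and its ChIP-Seq samples were not analysed here. In the first experiment, preadipocytes immortalized with SV40T carried retrovirus for FLAG-tagged histone H3.3, either wild type (WT) or carrying the K36M mutation, which lowers methylation of H3K36, and were taken at day 0 (D0), day 2 (D2), and day 7 (D7) of adipogenesis. In the second, WT and K36M cells that also carried retroviral PPARγ received DMSO or the PPARγ ligand rosiglitazone (Rosi). In the third, cells carried lentivirus for a control shRNA (Ctrl) or for knockdown (KD) of *Nsd2*, which encodes an H3K36 methyltransferase, and were taken at D0 and D2. All cells derive from interscapular brown fat of newborn C57BL/6J mice. The labels describe them as GR-flox/flox cells given Vec or Cre to make WT or GR KO cells, and do not say which vector these libraries had, whereas the methods describe WT mice. Confluent cells were induced for 2 days with insulin, T3, IBMX, dexamethasone, and indomethacin, and the PPARγ cells were not given that mixture. The labels give the DMSO libraries as time 0 and the Rosi libraries as 24 h, while the methods describe 24 h with either, so on the labels alone the ligand and the time cannot be told apart. Each condition is 1 library, so no difference has a replicate check and no test between conditions was made.

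C/EBP proteins are basic leucine zipper transcription factors that bind DNA as pairs with each other. In fat cell formation, C/EBPβ and C/EBPδ are induced early by the hormones of the induction mixture and come before C/EBPα and PPARγ, which keep each other expressed and activate the genes of the mature adipocyte. C/EBPγ lacks an activation domain, and the product of *Ddit3*, called CHOP, is made in the stress response downstream of ATF4 and pairs with other C/EBP proteins in a way that keeps them from usual C/EBP sites.

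*Cebpa* (NM_007678) lies on chromosome 7 from 35904312 to 35906945 on the plus strand in mm9, as 1 exon. *Cebpg* (NM_009884) lies on the minus strand of the same chromosome, from 35831441 to 35841522, and its end is 62790 bases from the start of *Cebpa*. *Cebpb* (NM_009883, chromosome 2 from 167514415 to 167515918) is also 1 exon, while *Ddit3* (NM_007837, chromosome 10 from 126727830 to 126733344) has 4 in its closest annotated transcript. Although it encodes C/EBPδ, *Cebpd* (NM_007679, chromosome 16 from 15887379 to 15888559) is listed as a pseudogene in the GENCODE M1 annotation of mm9. The RPKM values were computed on a *Cebpd* transcript of 2260 bases, longer than the 1180 bases annotated there. The strand setting of the read counting is not given in the sources used here.

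The promoter windows of 4 of the genes are shown because their RNA levels split into different patterns below. They are RefSeq sequences on GRCm38.p6, a later build than the mm9 of the gene positions, and reach from 250 bases before to 50 bases after the transcript start, 5′ to 3′ on the strand of the gene. Capitals mark every match, on either strand, to the core promoter element TATAAA or to the nuclear factor Y element CCAAT. They also mark matches to TGACG, which is the core of the CREB site, to the AP-1 site TGANTCA, to the C/EBP site TTNNGCAA, and to the composite C/EBP-ATF site TGATGNAA. The windows are *Cebpa* at chr7:35119043-35119342 (plus strand), *Cebpb* at chr2:167688665-167688964 (plus), *Cebpg* at chr7:35056517-35056816 (minus), and *Ddit3* at chr10:127290543-127290842 (plus).
Cebpa: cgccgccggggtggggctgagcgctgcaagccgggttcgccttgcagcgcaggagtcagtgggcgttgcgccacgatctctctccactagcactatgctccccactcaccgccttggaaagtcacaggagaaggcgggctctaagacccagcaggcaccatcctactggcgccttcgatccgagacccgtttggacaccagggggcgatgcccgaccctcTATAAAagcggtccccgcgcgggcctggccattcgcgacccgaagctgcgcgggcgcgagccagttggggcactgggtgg
Cebpb: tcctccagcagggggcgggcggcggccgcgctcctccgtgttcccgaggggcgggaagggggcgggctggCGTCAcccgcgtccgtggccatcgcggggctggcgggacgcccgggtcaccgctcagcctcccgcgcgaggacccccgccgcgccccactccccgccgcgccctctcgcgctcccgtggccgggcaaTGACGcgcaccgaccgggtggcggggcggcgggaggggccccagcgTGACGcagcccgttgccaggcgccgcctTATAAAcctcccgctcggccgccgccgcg
Cebpg: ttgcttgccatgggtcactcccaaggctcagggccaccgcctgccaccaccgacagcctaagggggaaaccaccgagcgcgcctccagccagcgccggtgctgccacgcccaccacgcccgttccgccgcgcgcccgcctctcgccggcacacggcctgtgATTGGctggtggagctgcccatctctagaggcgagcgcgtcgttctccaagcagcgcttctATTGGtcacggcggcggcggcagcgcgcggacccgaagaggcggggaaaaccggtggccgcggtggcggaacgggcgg
Ddit3: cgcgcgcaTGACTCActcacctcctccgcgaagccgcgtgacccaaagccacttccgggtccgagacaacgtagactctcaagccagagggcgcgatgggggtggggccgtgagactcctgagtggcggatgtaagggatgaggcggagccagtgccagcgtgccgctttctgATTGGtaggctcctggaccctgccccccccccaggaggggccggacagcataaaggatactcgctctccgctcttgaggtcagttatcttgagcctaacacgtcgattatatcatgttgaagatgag

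No 2 matches overlapped. The *Cebpa* window held 1 match, a TATAAA from -30 to -25 counted from the start, a motif found in 13.6% of 32851 promoter windows of the same length. The *Cebpb* window held 3 matches to TGACG, found in 20.8% of windows, and a TATAAA from 22 to 27 after the start. *Cebpg* held 2 CCAAT matches and *Ddit3* held 1, all read as ATTGG on the gene's strand, a motif in 37.4% of windows. *Ddit3* also held a TGACTCA from -242 to -236, and TGANTCA was found in 7.81% of windows. TTNNGCAA (10.8% of windows) and TGATGNAA (3.97%) had no match in these 4 windows, which says only that those letters are absent from them. *Cebpd* is named only.

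The libraries held 12213559 to 24365867 mapped reads. *Nsd2* was at 5.85 RPKM at D0 and 7.01 at D2 of the knockdown, under the 19.9 and 29.0 of Ctrl, so those libraries carry their label. The preadipocyte markers *Pdgfra*, *Pdgfrb*, *Dlk1*, *Thy1*, *Cd34*, and *Zfp423* summed to between 32.9 and 274 RPKM with none at 0. The 6 brown adipocyte markers summed to between 0.418 and 14.3 RPKM, highest at D7 of WT cells, with *Cidea* at 0 in 11 libraries and *Ucp1* at 0 in 9. *Ucp1*, the thermogenic protein gene that defines mature brown fat, did not exceed 0.194 RPKM in any library. Myoblast, leukocyte, and endothelial markers summed to at most 3.99, 3.11, and 2.47 RPKM.

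Intervals given with log2 ratios below are 95% counting intervals. They reflect read counting alone and set 1 library against another, not 1 condition against another. A gene is called higher or lower when its RPKM ratio is over 2-fold, and "rose" and "fell" are used only of such calls. In these bulk libraries, fewer cells that express a gene and less of its RNA per cell cannot be told apart. Many of the comparisons share a library, so their ratios are not independent of one another. Across 15 comparisons between days, treatments, or a perturbed line and its control, *Cebpa* was called in 11, *Cebpb*, *Cebpd*, and *Ddit3* in 5 each, and *Cebpg* in 4. Per comparison, 12.0% to 28.4% of all genes with reads were called higher and 8.31% to 25.2% lower. Among genes that reached 1 RPKM these shares were 4.88% to 15.7% and 3.11% to 17.3%. Calls were thus common, and 4 or 5 of 15 is not read as particular to these genes.

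**Figure D1:**
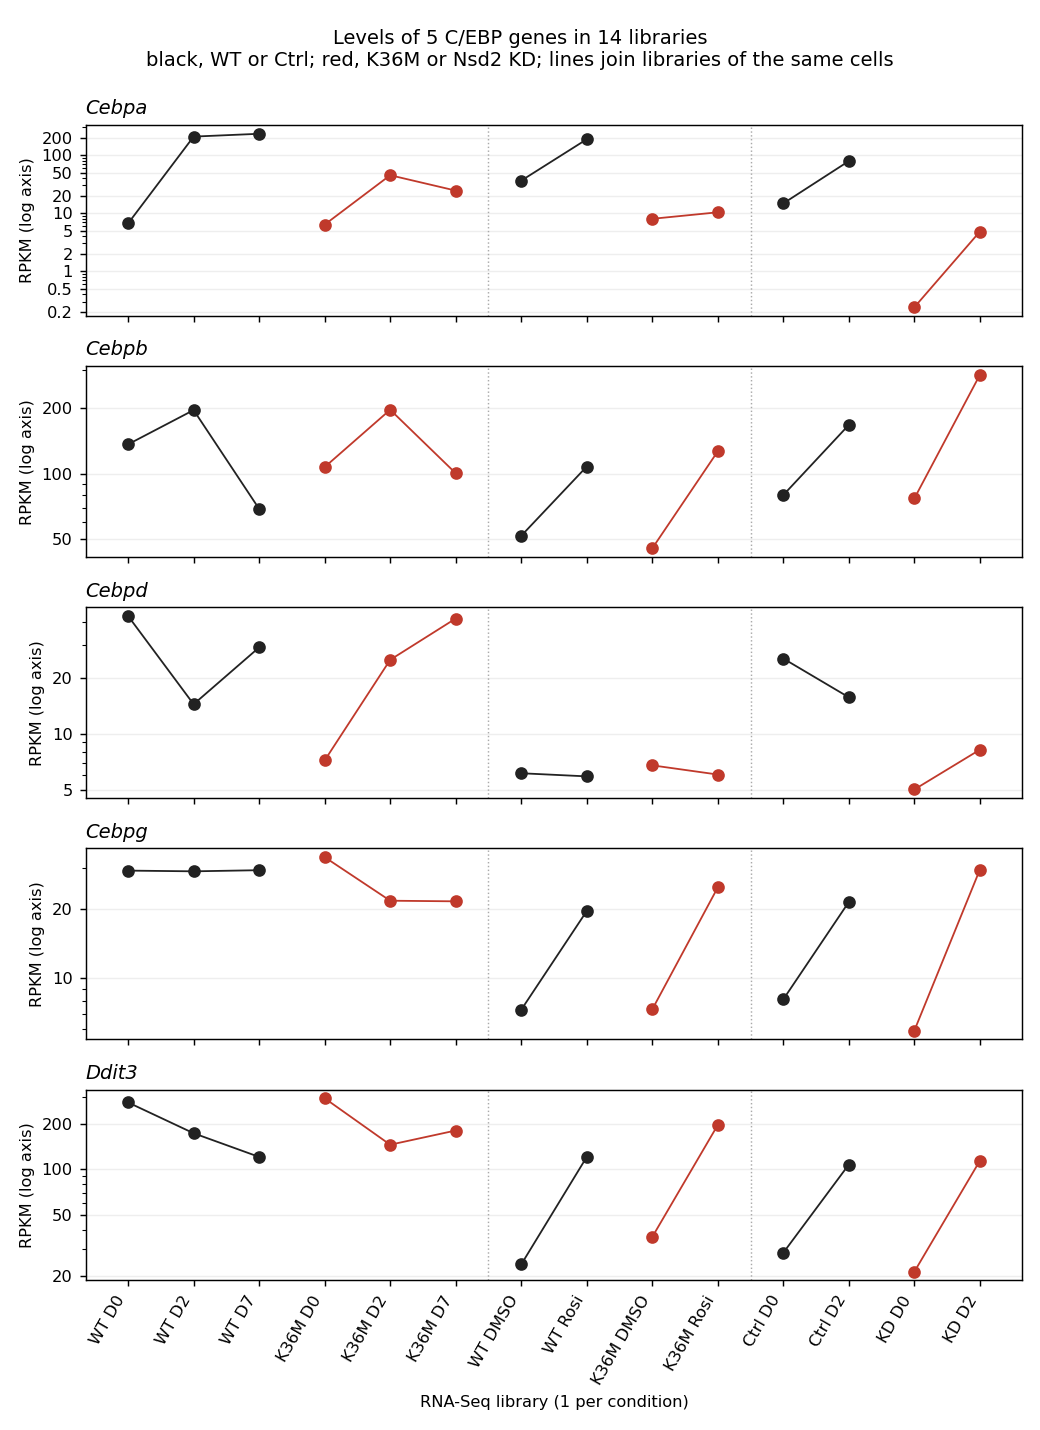
RPKM of each of 5 C/EBP genes (log axes that differ between panels) in 14 RNA-Seq libraries, with WT or Ctrl libraries in black and K36M or Nsd2 KD libraries in red; each point is 1 library and lines join libraries of the same cells. *Cebpa* spans 0.239 to 232 RPKM and is nearest between red and black at D0 of the first experiment, while *Cebpb* stays between 45.5 and 284 RPKM.

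*Cebpa*, which encodes the factor that closes the adipogenic cascade, had the widest range of the 5 genes. WT cells went from 6.64 RPKM at D0 to 208 and 232 on the later days. In K36M cells the same days gave 6.33, 44.9, and 24.4 RPKM. Thus both lines started level in *Cebpa*, and the K36M line was far below WT from D2 on.

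In the PPARγ cells, *Cebpa* stood at 36.2 RPKM in WT and 7.98 in K36M cells under DMSO. Under Rosi the WT value was 187 and the K36M value 10.3. The difference between the lines was therefore already present with DMSO. In the third experiment Ctrl cells had 14.7 RPKM of *Cebpa* before and 78.7 after induction, against 0.239 and 4.80 in KD cells.

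The lowest of these values rests on 11 reads and its 95% Poisson interval is 0.119 to 0.428 RPKM. Ordered by level, WT D7, WT D2, and WT Rosi came first and KD D2 and KD D0 last. Of the 13 pairs of neighbours in that order, only WT D0 and K36M D0 had a counting interval of their ratio that included equality.

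Compared with WT, *Cebpa* in K36M cells was at a log2 ratio of -0.07 (interval -0.29 to 0.15) at D0. By D2 the ratio was -2.21 (-2.29 to -2.13), and by D7 it was -3.25 (-3.36 to -3.15). It was -2.18 (-2.32 to -2.04) with DMSO and -4.18 (-4.34 to -4.02) with Rosi, so *Cebpa* was called lower in K36M cells at 4 of 5 matched points. At the Rosi point 64 of the 11987 genes that reached 1 RPKM in either library had a ratio as low or lower.

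Preadipocyte markers summed to 274 RPKM in K36M and 144 in WT cells at D7. There 2 of the 6 were higher and 1 lower, beside 19.7% and 13.2% of all genes. At D2 they summed to 63.4 and 32.9 RPKM, and 2 were higher and none lower, beside 22.2% and 9.9%. In the PPARγ cells the sums were 91.9 in K36M and 89.1 in WT with DMSO, and 50.9 and 66.3 with Rosi. With DMSO 1 was higher and none lower, beside 23.9% and 8.31%. With Rosi 1 was higher and 2 lower, beside 28.4% and 12.6%. At D2 of the third experiment the sums were 36.4 in KD and 41.6 in Ctrl cells. There 1 was higher and 4 lower, beside 12.0% and 18.5%. The part of these markers in the *Cebpa* difference was not tested.

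In KD cells the log2 ratio to Ctrl was -5.94 (-6.95 to -5.09) at D0 and -4.03 (-4.23 to -3.84) at D2. *Cebpa* was thus low in KD cells at D0 as well, whereas K36M cells were level with WT at D0 of the first experiment and low under DMSO in the second. With 1 added to each RPKM the D0 ratio was -3.66, since the KD level is under 1. Between the control lines themselves, Ctrl against WT, the ratio was 1.14 at D0 and -1.40 at D2, which is the only spread between control lines that these files hold.

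Over the first 2 days *Cebpa* rose in K36M cells by a log2 ratio of 2.83 and in KD cells by 4.33 (3.46 to 5.35), against 4.97 in WT and 2.42 in Ctrl cells. The rise in KD cells exceeded that in Ctrl cells by 1.91 (1.03 to 2.79), while its end point was 16.4-fold lower. With 1 added to each RPKM that difference in rise was -0.12, so its direction depends on the 11 reads. From D2 to D7, *Cebpa* in WT cells had a log2 ratio of 0.16 (0.12 to 0.20) and in K36M cells of -0.88 (-1.01 to -0.75), neither over 2-fold.

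**Figure D2:**
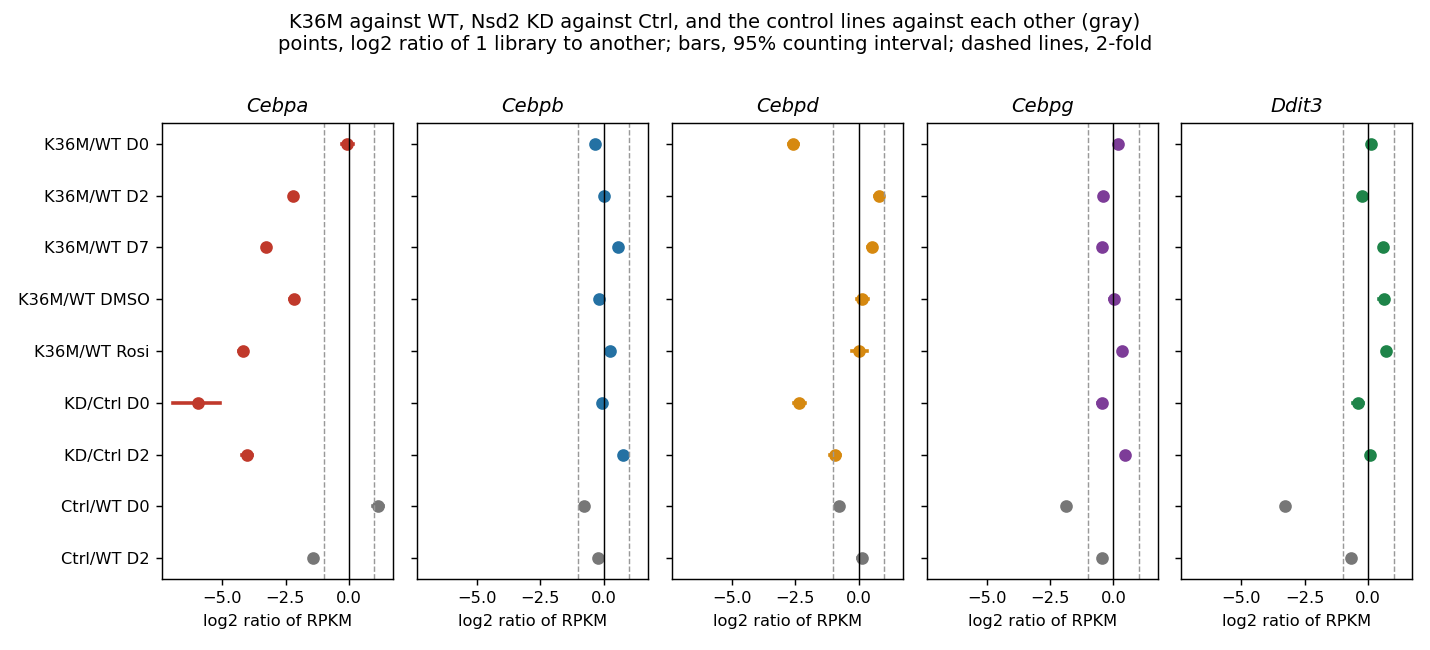
Log2 ratios of RPKM (horizontal axis) for 5 C/EBP genes in K36M against WT cells, in Nsd2 KD against Ctrl cells, and, in gray, between the control lines, with 95% counting intervals as bars and 2-fold as dashed lines. *Cebpa* lies left of the 2-fold line in 6 of the 7 perturbed comparisons, *Cebpd* in the D0 comparisons of both experiments, and *Cebpb*, *Cebpg*, and *Ddit3* in none of the perturbed ones.

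*Cebpb*, one of the early factors, did not follow *Cebpa*. WT cells had 137, 196, and 69.0 RPKM on the 3 days in turn. K36M cells had 107, 197, and 101 RPKM. Both lines thus had the same D2 level, and their log2 ratio there was 0.01 (-0.05 to 0.07).

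With PPARγ, *Cebpb* in WT cells went from 51.9 RPKM under DMSO to 108 under Rosi. In K36M cells with PPARγ it went from 45.5 to 127 RPKM. In the third experiment induction took it from 79.9 to 168 RPKM in Ctrl cells, and from 77.1 to 284 in KD cells. The highest *Cebpb* of all 14 libraries was hence in KD cells at D2, where *Cebpa* was at its second lowest.

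No K36M or KD library differed over 2-fold from its control in *Cebpb*, with log2 ratios from -0.35 at D0 in K36M cells to 0.76 (0.71 to 0.81) at D2 in KD cells. Between D2 and D7 *Cebpb* in WT cells fell by 1.51 in log2 units, and 246 of 12182 genes had a ratio as low or lower. In K36M cells the same ratio was -0.97 (-1.05 to -0.89). *Cebpb* rose with Rosi in both lines, with log2 ratios of 1.06 (0.97 to 1.14) in WT cells, near the threshold, and 1.48 (1.39 to 1.57) in K36M cells. At induction it rose by 1.07 (1.00 to 1.14) in Ctrl cells and by 1.88 (1.81 to 1.96) in KD cells.

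Counted over the 5 genes, the first experiment gave few calls outside *Cebpa* and *Cebpd*. Since calls are frequent among genes with few reads, the share of genes called is given first over all genes with reads and then, in brackets, over those that reached 1 RPKM. In WT cells between D0 and D2, *Cebpa* was called higher, as were 13.6% (9.38%) of genes. *Cebpd* was called lower there, as were 25.2% (17.3%). In K36M cells that step had *Cebpa* and *Cebpd* higher, with 16.5% (10.2%) of genes, and *Ddit3* lower, with 19.6% (11.2%).

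Between D2 and D7 in WT cells, *Cebpd* was higher, with 22.4% (15.7%) of genes, and *Cebpb* was lower, with 12.2% (5.08%). None of the 5 was called in K36M cells, where 21.5% (15.7%) of genes were higher and 14.9% (7.02%) lower.

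In K36M against WT cells, 1 of the 5 was lower at each day and none higher. At D0 that gene was *Cebpd*, with 12.0% (6.36%) of genes lower and 14.8% (5.02%) higher. At D2 it was *Cebpa*, with 9.9% (4.37%) lower and 22.2% (11.2%) higher, and at D7 again *Cebpa*, with 13.2% (8.46%) lower and 19.7% (11.7%) higher. In the PPARγ cells *Cebpa* alone was lower in K36M than in WT. Of all genes, 8.31% (3.11%) were lower and 23.9% (5.09%) higher there under DMSO, and 12.6% (12.1%) were lower and 28.4% (7.02%) higher under Rosi.

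More of the 5 were called in the other experiments. Rosi went with 4 of the 5 higher in WT cells, where 17.0% (9.96%) of genes were higher, and with none lower, where 16.2% (5.05%) were. In K36M cells 3 were higher, beside 18.3% (7.9%) of genes, and none lower, beside 15.0% (8.85%).

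At induction 4 of the 5 were higher in Ctrl cells, beside 17.3% (11.3%) of genes, and none lower, beside 23.4% (16.1%). In KD cells 4 were again higher, beside 16.9% (11.8%), and none lower, beside 24.5% (16.8%). In KD against Ctrl cells *Cebpa* and *Cebpd* were lower at D0, with 18.1% (10.8%) of genes, and *Cebpa* at D2, with 18.5% (9.57%). None was higher at either day, where 13.5% (6.61%) and 12.0% (4.88%) of genes were.

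**Figure D3:**
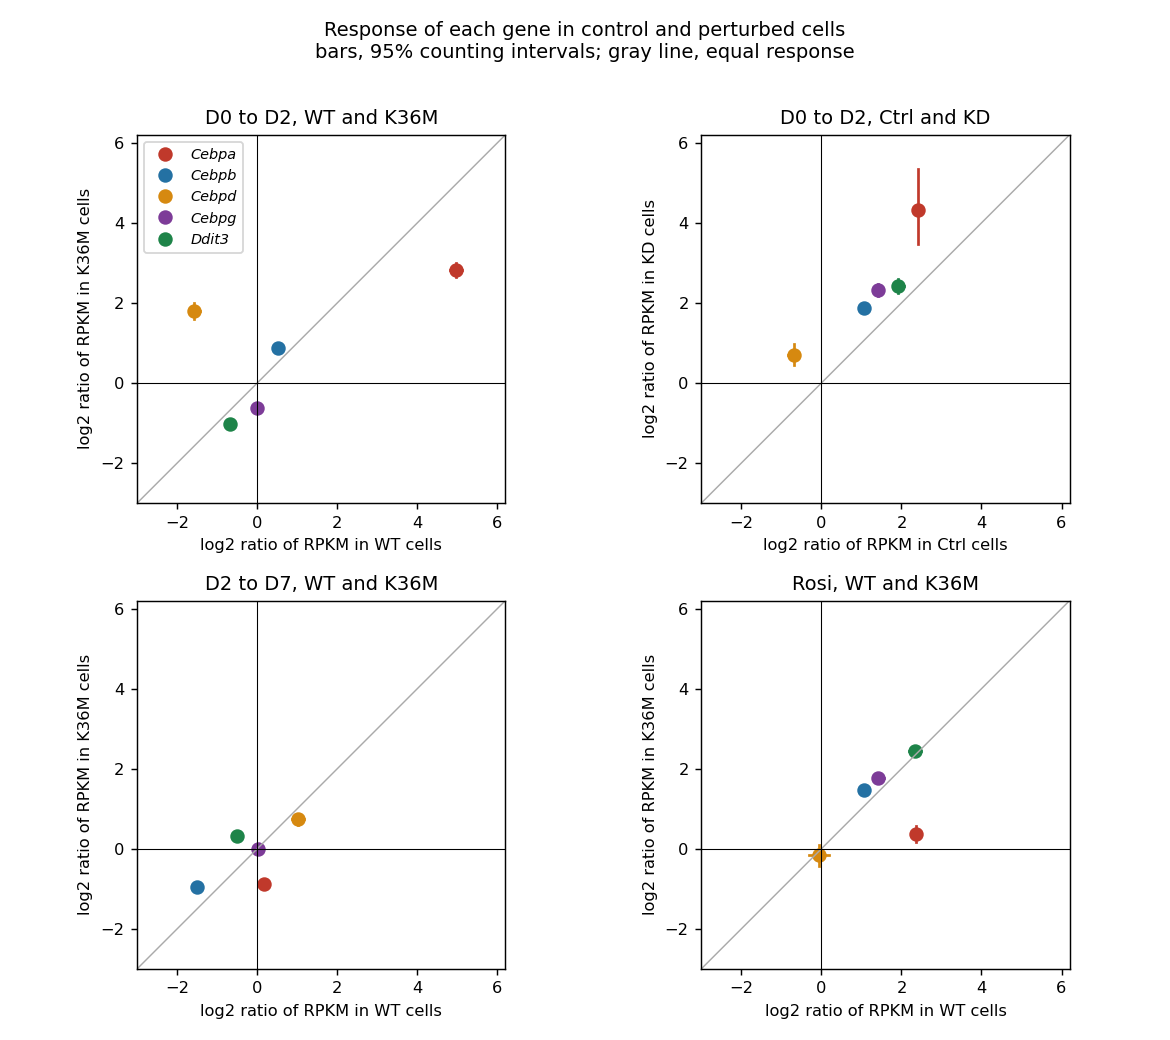
Log2 ratio of RPKM for each of 5 C/EBP genes in control cells (horizontal axis) and in K36M or KD cells (vertical axis) for D0 to D2, D2 to D7, and Rosi against DMSO, with 95% counting intervals as bars and equal responses on the gray line. *Cebpd* lies in the upper left of both D0 to D2 panels, and with Rosi *Cebpa* lies farthest below the line, at 2.37 in WT and 0.37 in K36M cells.

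*Cebpd*, the other early factor, was the gene called in K36M against WT cells at D0, and was called beside *Cebpa* in KD against Ctrl cells. WT cells had 42.8, 14.4, and 29.1 RPKM in day order. K36M cells had 7.20, 24.9, and 41.5 RPKM, so that line began low and ended above WT. Ctrl cells had 25.3 and then 15.7 RPKM, and KD cells 5.03 and then 8.22.

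With PPARγ, *Cebpd* in WT cells was 6.14 RPKM under DMSO and 5.91 under Rosi, and in K36M cells 6.77 and 6.05. These 4 libraries differed little, and the intervals of both ligand ratios and both line ratios included equality. In the order of all 14 libraries, WT D0 and K36M D7 led, and 9 of 13 pairs of neighbours had an interval that included equality.

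At D0 *Cebpd* was lower in K36M than in WT cells by a log2 ratio of -2.57 (-2.75 to -2.40) and lower in KD than in Ctrl cells by -2.33 (-2.56 to -2.11). At D2 the ratios were 0.79 (0.63 to 0.95) and -0.93 (-1.13 to -0.74), which are both under 2-fold and of opposite sign. The control lines differed by -0.76 (-0.86 to -0.65) at D0, with Ctrl below WT. In K36M cells at D0 all 5 myoblast markers were higher than in WT, beside 14.8% of all genes, though their sum was only 1.20 against 0.500 RPKM. *Myod1*, *Myog*, *Pax7*, and *Myf5* were at 0 in WT cells, and only 1 of the 5 reached 1 RPKM. In KD cells at D0, 2 of the 6 preadipocyte markers were higher and 4 lower than in Ctrl, with sums of 215 and 170 RPKM. Of all genes, 13.5% were higher and 18.1% lower there. The markers were only described. Their part in the *Cebpd* difference was not tested.

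At induction *Cebpd* fell by 1.57 in log2 units in WT cells, whereas it rose by 1.79 (1.60 to 1.99) in K36M cells. The ratio was -0.69 (-0.83 to -0.55) in Ctrl cells and 0.71 (0.45 to 0.97) in KD cells. Both perturbed lines thus moved opposite to their controls at induction, by a difference of 3.36 (3.13 to 3.59) for K36M minus WT and of 1.40 (1.11 to 1.69) for KD minus Ctrl. The perturbed lines start here from D0 libraries in which *Cebpd* was already low.

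Acute-phase and cytokine genes, among which C/EBPβ and C/EBPδ are known regulators, were listed beside *Cebpd*. At D0, 11 of 12 were lower in K36M than in WT cells and none higher, beside 12.0% and 14.8% of all genes. Their median log2 ratio was -3.24 against 0.11 over all genes. *Hp*, which encodes the hemoglobin scavenger haptoglobin, was 36.4 RPKM in WT and 1.87 in K36M cells. *Serpina3n*, a protease inhibitor gene, was 16.4 and 0.894 RPKM, and the cytokine gene *Il6* was 28.6 and 1.67 RPKM. In the PPARγ cells *Cebpd* was level. There 7 of 11 listed genes were lower in K36M than in WT under DMSO and 8 of 12 under Rosi. None was higher. Of all genes, 8.31% and 12.6% were lower and 23.9% and 28.4% higher. In the first experiment 4 of 12 were lower and 3 higher at D2, beside 9.9% and 22.2%. At D7, 2 were lower and 3 higher, beside 13.2% and 19.7%.

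In KD against Ctrl cells at D0, 10 of 11 were lower, beside 18.1% of all genes, with a median of -3.19 against -0.00. The remaining gene, *S100a8*, was listed at 0 in Ctrl and had 0.146 RPKM, from 1 read, in KD cells. *Hp* was 11.4 RPKM in Ctrl and listed at 0 in KD cells, and *Cp*, which encodes ceruloplasmin, was 6.56 and 0.405 RPKM. At D2, where *Cebpd* was not called, 9 of 12 were lower in KD than in Ctrl cells and 1 higher. Of all genes, 18.5% were lower and 12.0% higher there. All 12 were also lower in Ctrl than in WT cells at D0, beside 23.0% of all genes, with a median of -2.59 against -0.28. The control lines thus differed in these genes too. *Saa3*, an acute-phase gene, was 417 RPKM in WT and 8.86 in Ctrl cells.

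Between D0 and D2 the list did not move as one with *Cebpd*. In WT cells 3 were higher and 4 lower, beside 13.6% and 25.2% of all genes, and the lower ones include *Ccl2*, which encodes a chemokine, at 1216 and 12.8 RPKM. Of the higher ones *Orm1* had 1 and 4 reads and *S100a8* had 2 and 9. In K36M cells 7 were higher and 2 lower, beside 16.5% and 19.6%, and *Serpina3n* went from 0.894 to 62.5 RPKM. With Rosi 8 of 12 were higher in WT cells and 6 of 11 in K36M cells, beside 17.0% and 18.3% of all genes. *Cebpd* stayed level there. *Saa3* went from 5.20 to 44.9 RPKM in WT and from 2.24 to 59.8 in K36M cells.

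*Ddit3*, the stress-induced member, was the most abundant of the 5 genes in 4 libraries. WT cells had 275, 173, and 121 RPKM in day order, and K36M cells 294, 145, and 180. Both lines were highest at D0, and K36M was not over 2-fold from WT at any day.

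With PPARγ, *Ddit3* in WT cells went from 23.8 RPKM under DMSO to 121 under Rosi. The K36M values were 36 and 196 RPKM. In the third experiment induction took it from 28.4 to 108 RPKM in Ctrl and from 21.3 to 114 in KD cells. The DMSO and D0 libraries of these 2 experiments therefore held the 4 lowest values, and they stood apart from the other 10 libraries, whose lowest was 108 RPKM.

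Rosi came with a rise of *Ddit3* by 2.35 (2.20 to 2.50) on the log2 scale in WT and by 2.44 (2.32 to 2.56) in K36M cells. The difference of the responses was 0.10 (-0.09 to 0.29), in contrast to *Cebpa*, whose responses differed by -2.00 (-2.20 to -1.79). At induction *Ddit3* rose by 1.92 (1.78 to 2.07) in Ctrl and by 2.42 (2.25 to 2.60) in KD cells. In the first experiment the same step gave -0.67 (-0.74 to -0.61) in WT and -1.01 (-1.10 to -0.93) in K36M cells.

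The difference between the control lines was larger for *Ddit3* at D0 than any K36M or KD difference of that gene. The log2 ratio of Ctrl to WT was -3.28 (-3.42 to -3.15), and 137 of 12175 genes had a ratio as low or lower. At D2 it was -0.68 (-0.77 to -0.60). Ctrl against WT had *Cebpg* and *Ddit3* lower at D0, beside 23.0% (15.1%) of genes, and *Cebpa* higher, beside 12.0% (7.1%). At D2 it had *Cebpa* lower, beside 15.6% (6.42%), and none higher, beside 12.2% (4.82%).

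*Cebpg*, a ubiquitous partner with no activation domain, held a narrow band in the first experiment. WT cells had 29.4, 29.1, and 29.5 RPKM in day order, and K36M cells 33.6, 21.7, and 21.6. WT cells thus kept 1 level throughout, and the intervals of both of their steps included equality.

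In the other experiments *Cebpg* went with *Ddit3*. Rosi took it from 7.30 to 19.6 RPKM in WT and from 7.33 to 24.8 in K36M cells. Induction took it from 8.11 to 21.5 RPKM in Ctrl cells and from 5.93 to 29.6 in KD cells. All 4 steps were rises, with log2 ratios of 1.42 (1.30 to 1.55), 1.76 (1.64 to 1.88), 1.40 (1.28 to 1.53), and 2.32 (2.18 to 2.46) in that order. No K36M or KD library differed over 2-fold from its control in *Cebpg*, with log2 ratios from -0.45 to 0.47.

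Across the 14 libraries log2(RPKM + 1) of *Cebpg* and *Ddit3* had a Pearson r of 0.95, given as a description since the libraries share cell lines and experiments. The r of *Ddit3* was 0.91 with *Atf4*, the upstream factor, 0.94 with *Trib3*, a CHOP and ATF4 target, and 0.48 with *Hspa5*, which encodes the endoplasmic reticulum chaperone BiP. *Cebpa* and *Cebpb* had an r of 0.10.

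**Figure D4:**
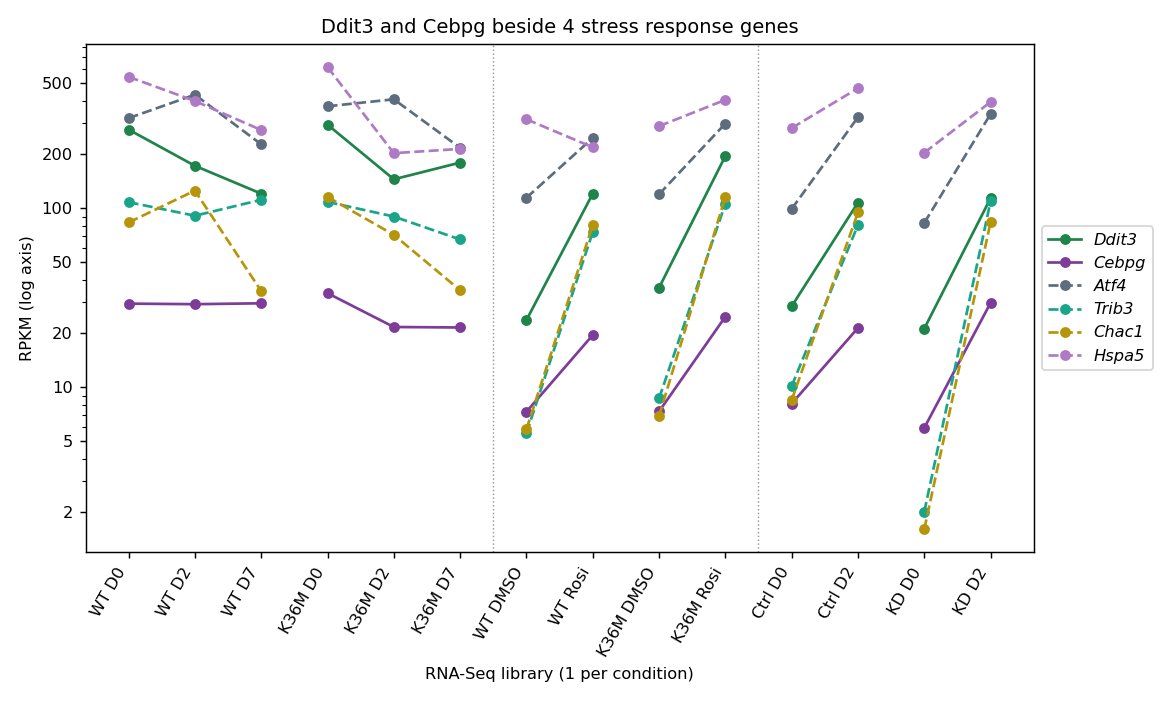
RPKM (log axis) of *Ddit3* and *Cebpg* (solid lines) and of the stress response genes *Atf4*, *Trib3*, *Chac1*, and *Hspa5* (dashed lines) in 14 RNA-Seq libraries; each point is 1 library and lines join libraries of the same cells. *Trib3* and *Chac1* lie between 1.61 and 10.2 RPKM in the 2 DMSO libraries and the D0 libraries of the third experiment, as *Ddit3* and *Cebpg* also have their 4 lowest values there, and between 34.5 and 126 RPKM elsewhere.

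The integrated stress response, the pathway that leads from eIF2α kinases over ATF4 to CHOP, was described by 19 listed genes. Under Rosi 13 of them were higher in the WT line and 15 in the K36M line, beside 17.0% and 18.3% of all genes. None was lower, beside 16.2% and 15.0%. The list medians were 1.36 and 1.71 on the log2 scale against 0.05 over all genes. *Trib3* went from 5.54 to 73.7 RPKM in WT cells and from 8.66 to 106 in K36M cells. *Atf4* went from 115 to 247 RPKM and from 120 to 298, and *Atf3*, another stress-induced factor, from 1.26 to 16.1 and from 1.77 to 62.5.

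At induction 16 of 19 were higher and none lower in Ctrl cells, beside 17.3% and 23.4% of all genes. In KD cells 16 were higher and 1 lower, beside 16.9% and 24.5%. The medians were 2.10 and 2.21 against 0.00 and -0.02 over all genes. *Chac1*, a glutathione-degrading enzyme gene, went from 8.48 to 94.9 RPKM in Ctrl and from 1.61 to 83.6 in KD cells. The gene that was lower in KD cells was *Eif2ak3*, which encodes the kinase PERK, at 6.97 and 3.40 RPKM (chosen after its values were seen).

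In the first experiment the same step called 2 higher (*Ddit4* and *Dnajb9*) and none lower in WT cells, beside 13.6% and 25.2% of all genes. In K36M cells it called 1 higher (*Ddit4*) and 3 lower (*Atf3*, *Ppp1r15a*, and *Hspa5*), beside 16.5% and 19.6%. At D0, 16 of 19 were lower in Ctrl than in WT cells and none higher, beside 23.0% and 12.0% of all genes. The median was -1.69 against -0.28. *Trib3* was 108 RPKM in WT, 109 in K36M, 10.2 in Ctrl, and 2.01 in KD cells at D0. *Atf4* was 319, 372, 99.2, and 82.9 RPKM in those libraries. The WT and K36M cells thus began adipogenesis with high levels of *Ddit3*, *Cebpg*, and most listed stress genes, and the Ctrl and KD cells with low ones.

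K36M cells had few of these genes called against WT, and KD cells at D0 more. At D0, 1 of 19 was higher and none lower in K36M than in WT cells, beside 14.8% and 12.0% of all genes. The higher one was *Stc2* at 32.3 against 12.0 RPKM. With Rosi 5 of 19 were higher, among them *Atf3* at 62.5 against 16.1 RPKM, and none lower. That share of higher genes was near the 28.4% of all genes, though 7.02% of those that reached 1 RPKM were higher. Of all genes, 12.6% were lower there. In KD against Ctrl cells at D0, 1 was higher and 9 lower, beside 13.5% and 18.1% of all genes. The median was -0.46 against -0.00, and the higher one was *Ddit4* at 81.6 against 35.6 RPKM. *Asns*, the asparagine synthetase gene, was 54.2 RPKM in Ctrl and 9.23 in KD cells. *Ddit3* was not among the calls there, with a log2 ratio of -0.41 (-0.62 to -0.21).

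**Figure D5:**
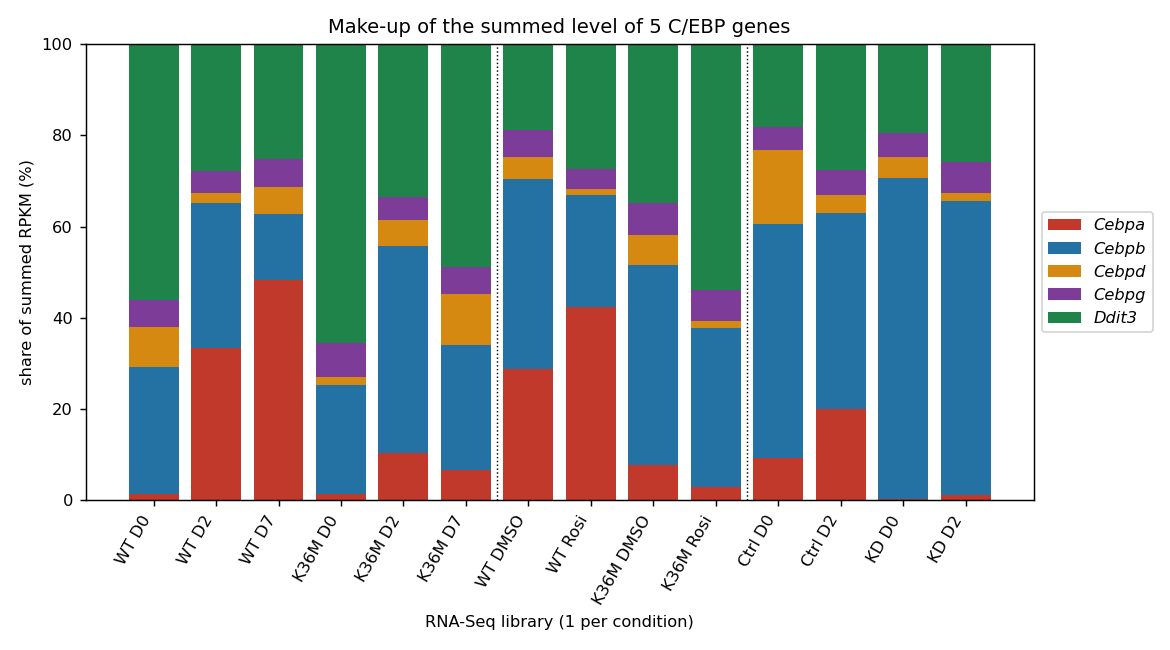
Share of each of 5 C/EBP genes in their summed RPKM (vertical axis, percent) in 14 RNA-Seq libraries, 1 bar per library. *Cebpa* has the largest share in WT D2, WT D7, and WT Rosi, up to 48.3%, and at most 10.4% in K36M and KD libraries, where *Cebpb* or *Ddit3* leads.

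Since RPKM is per transcript length, the levels of the 5 genes can be set side by side on that scale. For *Cebpd* this depends on the 2260 bases used for its RPKM, against 1180 bases annotated. With the same reads on fewer bases its share would be larger, but how many of its reads fall on the annotated bases is not known here. *Cebpb* had the largest share of their summed RPKM in 7 libraries, *Ddit3* in 4, and *Cebpa* in 3. All 3 of the libraries led by *Cebpa* were of WT cells, at D2, at D7, and with Rosi. The *Cebpa* share over the days was 1.35%, 33.5%, and 48.3% in WT cells. In K36M cells it was 1.41%, 10.4%, and 6.63%. Induction took it from 9.39% to 20.1% in Ctrl cells and from 0.218% to 1.09% in KD cells.

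The ratio of *Cebpb* to *Cebpa* RPKM over the days was 20.6, 0.944, and 0.297 for WT, against 17.0, 4.38, and 4.12 for K36M. *Cebpb* thus stayed in excess in K36M cells, while in WT cells *Cebpa* overtook it. With PPARγ and Rosi the ratio was 0.578 in WT and 12.3 in K36M cells, against 1.43 and 5.70 with DMSO. Ctrl cells had 5.44 and then 2.13, and KD cells 322 and then 59.2. The share of *Cebpg* moved least, between 4.44% and 7.50%.

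Among 12 transcription factors known to act upstream of them, 4 were higher and 2 lower at D2 than at D0 in WT cells, against 5 and none in K36M cells. The list medians were 0.11 and 0.55 on the log2 scale, against -0.08 over all genes in both, of which 13.6% and 16.5% were higher and 25.2% and 19.6% lower. *Egr2* (also called *Krox20*), an early inducer of *Cebpb*, went from 2.19 to 28.1 RPKM in WT and from 2.72 to 13.1 in K36M cells. *Ebf2*, a selector of brown fat fate, went from 6.82 to 25.4 and from 8.01 to 17.8 RPKM. In KD against Ctrl cells at D2, 2 of 12 were higher and 3 lower, a share near the 12.0% and 18.5% of all genes, and the list median was -0.28 against -0.06. Among the lower were *Ebf2* at 16.6 in Ctrl and 4.26 RPKM in KD cells, and *Stat5a*, a hormone-activated factor, at 8.34 and 2.79 RPKM.

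With Rosi, 5 of these 12 factors were lower in K36M than in WT cells and 1, *Klf5*, higher, beside 12.6% and 28.4% of all genes, and the list median was -0.58 against 0.16. *Stat5a* was 21.6 RPKM in WT and 6.46 in K36M cells, and *Ebf1* was 24.0 and 11.2 RPKM. The AP-1 gene *Fosl2* was higher at D2 in KD cells, at 66.4 against 22.4 RPKM in Ctrl. At D0, where *Cebpd* differed, no factor of the 12 was lower over 2-fold in K36M or in KD cells, beside 12.0% and 18.1% of all genes. The list medians were -0.14 against 0.11 over all genes in K36M and -0.15 against -0.00 in KD cells. The part of these factors in the *Cebpd* difference was not tested. In each line 1 factor was higher, beside 14.8% and 13.5% of all genes. That gene was *Klf5*, at 3.33 RPKM in WT and 8.38 in K36M cells, and at 1.35 in Ctrl and 7.65 in KD cells.

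Among 11 relatives and regulators of C/EBP proteins, *Nfil3*, which encodes a related leucine zipper repressor, went from 37.2 to 81.4 RPKM in WT cells at induction. In that step 1 of 10 was higher and 3 lower, a share near the 13.6% and 25.2% of all genes, and the lower ones include *Batf* with 13 and 1 reads and *Batf3* with 19 and 6. *Atf5*, a stress-linked relative, went from 66.8 to 217 RPKM with Rosi in K36M cells and from 58.8 to 122 in WT cells. In KD cells at D0 *Atf5* was 11.8 RPKM against 85.1 in Ctrl cells. In that comparison 1 of 10 in the list was higher and 3 were lower, beside 13.5% and 18.1% of all genes. The higher one, *Batf3*, had 5 reads in Ctrl and 13 in KD cells, with an interval that included equality. The lower ones were *Atf5*, *Dbp*, and *Batf*, which had 1 read in Ctrl and 0 in KD cells.

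The adipocyte genes downstream of C/EBPα and PPARγ were called in the direction of *Cebpa* in some comparisons and not in others. The list of 18 holds genes the study itself names from these libraries, so its direction is not independent evidence. From D0 to D2, 15 of 17 were higher and 1 lower (*Cfd*) in WT cells, beside 13.6% and 25.2% of all genes. In K36M cells 17 of 18 were higher and none lower, beside 16.5% and 19.6%. *Fabp4*, a lipid carrier gene, went from 37.6 to 3249 RPKM in WT and from 18.5 to 1473 in K36M cells, where *Cebpa* reached 44.9 RPKM. In Ctrl cells 16 of 18 were higher and none lower, beside 17.3% and 23.4%, and *Fabp4* went from 14.8 to 1269 RPKM. In KD cells 8 of 15 were higher and 1 lower (*Retn*, with 12 and 6 reads), beside 16.9% and 24.5% of all genes. *Fabp4* went from 7.16 to 34.5 RPKM there.

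At D7, 17 of 18 were lower in K36M than in WT cells and none higher, beside 13.2% and 19.7% of all genes. The list median was -3.52 against 0.13 over all genes. *Scd1*, which encodes a fatty acid desaturase, was 2644 RPKM in WT and 98.8 in K36M cells. *Slc2a4*, the insulin-regulated glucose transporter gene, was 41.6 and 2.41 RPKM. The part of the list called lower was smaller at D2, with 9 of 18 lower and 2 higher in K36M cells, beside 9.9% and 22.2% of all genes. It was also smaller under DMSO in the PPARγ cells, with 8 of 17 lower and 2 higher, beside 8.31% and 23.9%. At D0, where *Cebpa* was level, 6 of 15 were lower in K36M than in WT cells and none higher. Of all genes, 12.0% were lower and 14.8% higher there, and the list median was -0.85 against 0.11. Of the 10 listed genes that reached 1 RPKM, 5 were lower, beside 6.36% of such genes. In KD against Ctrl cells at D0, where *Cebpa* was at its lowest, 6 of 16 were higher and 5 lower, with a median of -0.34. Of all genes, 13.5% were higher and 18.1% lower there. Of the 9 listed genes that reached 1 RPKM, 2 were higher and 4 lower, with a median of -0.95. In Ctrl against WT cells at D0, 10 of 16 were lower and 3 higher, beside 23.0% and 12.0% of all genes, although *Cebpa* was higher. *Pparg* was 101 RPKM in WT and 21.4 in K36M cells at D7, a log2 ratio of -2.24 beside -3.25 for *Cebpa*.

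With PPARγ and Rosi, 14 of 17 adipocyte genes were lower in K36M cells and 1 higher, beside 12.6% and 28.4% of all genes. The higher one was *Lep*, at 0.0243 RPKM from 1 read against a listed 0. *Agt*, the angiotensinogen gene, was 227 RPKM in WT and 4.94 in K36M cells, and *Fabp4* was 2505 and 1148 RPKM. *Pparg*, whose value can include reads of the retroviral copy, was 56.8 and 42.6 RPKM. In KD against Ctrl cells at D2, 15 of 18 were lower and none higher, beside 18.5% and 12.0% of all genes. *Cd36*, a fatty acid uptake gene, was at 0.300 RPKM in KD and 38.5 in Ctrl cells. Before induction *Pparg* was 12.5 RPKM in Ctrl and 26.4 in KD cells, whereas *Cebpa* was 14.7 and 0.239.

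The genes most like each C/EBP gene were ranked by Pearson r of log2(RPKM + 1) over the 14 libraries, among the 10520 genes that reached 5 RPKM in some library. For *Cebpa* they included *Agpat3* (r = 0.94) and *Agpat2* (0.93), which encode acyltransferases of lipid synthesis. *Agpat2* ranged from 7.13 to 238 RPKM. For *Cebpb* they were *Parn*, *Tmem87a*, and *Dgke*, with r from 0.91 to 0.93, and for *Cebpd* *Scara3*, *Ubtd2*, and *Cp*, with r from 0.89 to 0.90. For *Cebpg* they were *Gpt2* (0.99), *Trib3* (0.98), and *Pnrc2* (0.97), and for *Ddit3* *Gadd45a* (0.96), *Slc6a9* (0.96), and *Gpt2* (0.96). *Gadd45a* is a growth arrest and stress gene and ranged from 3.99 to 189 RPKM. These genes were picked as the highest of 10520 and the libraries share lines, so the r values describe these libraries only.

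Scaling bears on ratios that lie near 2-fold. With libraries put on a common scale through the median ratio over 13540 genes, the Ctrl to WT ratios shifted by 0.24 on the log2 scale at D0 and by 0.11 at D2, and the K36M to WT ratios at D7 by -0.12. After that shift *Ddit3* was at -3.04 in Ctrl against WT at D0 and *Cebpa* at -3.37 in K36M against WT at D7. Of 75 values for the 5 genes, 4 changed their call. *Cebpd* from D2 to D7 in WT cells (1.01, then 0.95), *Ddit3* from D0 to D2 in K36M cells (-1.01, then -0.95), and *Cebpb* with Rosi in WT cells (1.06, then 0.98) dropped under 2-fold. *Cebpb* from D2 to D7 in K36M cells (-0.97, then -1.07) passed it.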

How the data were processed

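The 14 RNA-Seq libraries come from 3 experiments with 1 library per condition. The authors deposited RPKM per RefSeq transcript, having divided reads by transcript length and by mapped reads. Their notes name mm9 and CASAVA 1.8.2, and the RNA-Seq aligner and counter are not given in the sources used here. Symbols were found for 28436 of 29082 transcripts, and the transcript with the highest mean RPKM stood for its gene. Whole reads were recovered for 26945 of the 26946 transcripts with values above 0 in more than 1 library, within 0.01 of a whole number, as were library totals.

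Ratios were taken without a pseudocount among genes above 0 in either library, called at over 2-fold as in the study, and given 95% Clopper-Pearson intervals from the recovered reads (Python 3.11.15, numpy 2.4.6, pandas 2.3.3, scipy 1.17.1). Steps were tested on simulated data. From each list up to 4 genes with the largest log2 ratio among those at 5 RPKM or more are named, plus *Pparg*, *Fabp4*, *Atf4*, and *Trib3*, and the 3 most alike genes per member, of which 1 is not reported here. Other listed genes used as examples were chosen after their values were seen. The members and lists were chosen with earlier results of these data known. Alternatives were other pseudocounts, a filter at 1 RPKM, rescaling by the median ratio, a 1.5-fold threshold, and calls that also need the interval to exclude equality.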

Additional observations from a re-analysis of the deposited data

Results flagged for a closer look

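*Cebpd* moved in opposite directions from D0 to D2 in K36M and WT cells, with a difference of log2 ratios of 3.36, and in KD and Ctrl cells, with a difference of 1.40. From D2 to D7, *Cebpa* had log2 ratios of -0.88 in K36M and 0.16 in WT cells, of opposite sign, with a difference of -1.04. *Ddit3* had 0.31 and -0.52, with a difference of 0.83. None of these D2 to D7 ratios was over 2-fold, nor were those of *Cebpd* in KD (0.71) and Ctrl cells (-0.69). After rescaling by the median ratio the WT *Cebpa* ratio was 0.10. Each counting interval excluded 0, but with 1 library per condition none of these differences was tested.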

How the results depend on the processing

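With 1 library per condition, spread between cultures is unknown, and every interval reflects read depth alone. Depth limits *Cebpa* in KD cells at D0 most. With a pseudocount of 1 the KD minus Ctrl difference of its D0 to D2 responses turned from 1.91 to -0.12, and *Cebpd* was no longer higher from D2 to D7 in WT cells (0 of 5 genes). Rescaling by the median ratio left 0 higher in that step, 0 lower from D0 to D2 in K36M cells, and 1 lower from D2 to D7 in K36M cells. With a 1.5-fold threshold, 2 of 5 were lower from D0 to D2 in WT and 2 in K36M cells, 1 was higher and 2 lower from D2 to D7 in K36M cells, and 1 was lower from D0 to D2 in Ctrl cells. That threshold also gave 1 higher in K36M against WT cells at D2, 1 with DMSO, and 1 with Rosi, and 1 higher and 2 lower in KD against Ctrl cells at D2. Keeping only genes at 1 RPKM or more, calls of higher relatives over the comparisons went from 40 to 24. Of 75 log2 ratios of the 5 genes, 7 moved beyond their interval with a pseudocount of 1 and 14 with rescaling, and no called ratio changed sign. No paired analysis was possible because each group is 1 library and the labels give no replicate numbers.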
